A study of Sus scrofa with 6 samples.

Results

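The transcripts described here were short, unspliced and intergenic. They were the lncRNAs of the deposited table with class code u, which the assembly comparison gives to a transcript that overlaps no annotated gene, with 1 exon, with a length of 400 bases or less and with a gene identifier found on 1 row only. Of the 4046 lncRNAs in the table, 3310 carried class code u and 2999 of these had 1 exon. The length limit left 504 short transcripts, and all 504 had a gene identifier of their own, so that they made up 12.5% of the table. Their expression was not used to choose them. The samples were the psoas major muscle (PMM) and the longissimus dorsi muscle (LDM) of female Qinyu pigs (Qingyu in the paper), 178 days old, with 3 libraries of each. All pigs were fed to the same age, and no treatment or genetic change was applied. The study compared the muscles as a glycolytic and an oxidative skeletal muscle.

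Long noncoding RNAs are transcripts beyond the small RNA size that are not translated into a known protein. Those between genes can act on chromatin, on nearby genes or on other RNAs, but most have no known role. A short transcript with 1 exon carries no splice junction that would fix its ends. Its strand rests on the library protocol alone, in which the second cDNA strand was degraded according to the methods. In an assembly from RNA-seq reads, such a transcript is a stretch of covered genome, and it may be a whole RNA or a piece of a longer one. Skeletal muscle holds contractile fibres beside fibroblasts, fat, vessel and nerve cells. LDM is known as a muscle of mostly fast fibres that run on glycolysis, and PMM as a muscle richer in slow fibres that burn fuel in mitochondria. These were whole muscle samples, in which fewer cells of a type and less RNA per cell cannot be told apart.

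The 504 short transcripts ran from 201 to 400 bases with a median of 301. On the plus strand there were 260, and 244 lay on the minus strand. They were found on all 19 chromosomes of the table, with 59 on chromosome 1, 42 on chromosome 2 and 39 each on chromosomes 13 and 15. They made up 19.1% of the lncRNAs of chromosome 10 and 7.19% of those of chromosome 16. The coding potential score CPC, which falls below 0 for noncoding sequence, had a median of -1.19 and ranged from -1.53 to -1.001. For unspliced intergenic transcripts of over 400 to 5000 bases, called mid-length here (2213 transcripts), the median was -1.16, and it was -1.11 for the 276 transcripts over 5000 bases, called long here. CNCI, a second such score, had a median of -0.031 in the short transcripts. No CPC score was above -1 and no CNCI score above 0, since the authors kept only transcripts under these limits. The CPC ranges and medians are thus those of values cut off at -1.

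Short transcripts lay farther from other lncRNAs of the table than longer ones did. The median gap to the nearest other transcript was 30501 bases for short, 6555 for mid-length and 2797 for long transcripts. Within 10000 bases of another transcript were 195 short transcripts (38.7%), against 58.0% of the mid-length and 65.2% of the long. The neighbour was on the same strand in 176 of these 195, in 1180 of 1283 mid-length and in 166 of 180 long transcripts. At gaps under 1000 bases there were 58 short transcripts. Positions are given as in the authors' table. The authors name the pig assembly Sscrofa11.1, but 55 of the short transcripts on 15 chromosomes lay past the last RefSeq gene of that assembly, so the build of the positions is not settled and no sequence or neighbouring gene was read from them.

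FPKM is the number of fragments on a transcript, divided by its length in kilobases and by the mapped fragments of the library. Within a library the deposited FPKM was the deposited coverage divided by a constant, which placed 7.94, 7.24 and 8.78 gigabases behind LDM replicates 1, 2 and 3 and 7.59, 7.52 and 7.86 behind PMM replicates 1, 2 and 3. On a transcript of 300 bases, 1 read of 150 bases was worth 0.0569 to 0.0691 FPKM. The median value above 0 of a short transcript rested on 13, 20 and 8.27 reads of 150 bases in LDM and on 17.9, 17 and 11.3 reads in PMM. Of the 1523 values above 0, 207 (13.6%) rested on fewer than 3 reads. The remaining 1501 of 3024 values (49.6%) were listed at 0, against 41.0% over all lncRNAs. Among these zeros were 67 (4.46%) at which 10 or more reads were expected from the lower of the other 2 libraries of the muscle, and the highest such expectation was 77.3 reads, in LDM replicate 1. A value of 0 in this table is thus a listed 0 and was not taken as proof of absence.

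The first question was how many of the short transcripts each library held. In LDM, 247, 314 and 238 of the 504 were above 0 FPKM in replicates 1, 2 and 3. In PMM, the counts were 239, 248 and 237. LDM replicate 2 stood apart from the other 5 libraries, which lay within 237 to 248. The means were 266 ± 41.5 (SD, n = 3) in LDM and 241 ± 5.86 (SD, n = 3) in PMM, and the difference of 25 was smaller than the spread between LDM libraries (two-sided exact permutation test, p = 0.6, where 3 against 3 allow no p under 0.1). Without LDM replicate 2, the LDM mean was 242.5 and the difference 1.17 (exact permutation p = 0.9).

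LDM replicate 2 also held the most transcripts at 1 FPKM or more. At that level there were 116, 230 and 86 short transcripts in LDM and 141, 143 and 95 in PMM. The median FPKM among values above 0 was 0.940, 1.37 and 0.449 in LDM against 1.24, 1.26 and 0.739 in PMM. LDM replicate 3 had the lowest median and PMM replicate 3 the next, so that the libraries numbered 3 were the low ones of both muscles. Averaged over the 504 transcripts, log10(FPKM + 1) was 0.172 ± 0.0574 (SD, n = 3) in LDM and 0.160 ± 0.0146 in PMM, a difference within the spread of the libraries (exact permutation test, p = 1). The library in which a short transcript was highest was LDM replicate 2 for 172 of the 504 (34.1%), PMM replicate 2 for 96, PMM replicate 1 for 87, LDM replicate 1 for 72, LDM replicate 3 for 44 and PMM replicate 3 for 33. A few transcripts held much of the signal, and the 10 highest made up 30.1 to 49.4% of the summed FPKM of a library.

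Short transcripts were next compared with longer unspliced intergenic ones inside each library. The share above 0 FPKM was 49.0, 62.3 and 47.2% for short transcripts in LDM replicates 1, 2 and 3, and 47.4, 49.2 and 47.0% in PMM. The mid-length transcripts had 56.9, 67.9 and 52.0% in LDM and 50.8, 50.1 and 44.8% in PMM. Short transcripts were lower in 5 of 6 libraries and higher in PMM replicate 3, with differences from -7.88 to 2.20 percentage points and a mean of -3.39 (two-sided exact sign-flip permutation test, p = 0.0938). Against the long transcripts, the share was lower in 6 of 6 libraries, with a mean difference of -16.4 percentage points (exact sign-flip permutation p = 0.03125, the smallest that 6 libraries allow). This difference lost its call when 1 FPKM was required, where the mean was -8.69 (exact sign-flip p = 0.125) and LDM replicate 3 went the other way, with 17.1% of short and 6.88% of long transcripts. A read on a short transcript is worth more FPKM than one on a long transcript. At equal FPKM, in turn, a longer transcript gathers more reads. Being above 0 FPKM and reaching a fixed number of covered bases thus favour the longer classes. Neither rule can separate expression from length. With 450 covered bases required of every transcript, which is 3 reads, the mean difference from the mid-length ones was -8.17 points (exact sign-flip p = 0.03125). With 1 FPKM required it was -1.49 (exact sign-flip p = 0.594), from -13.3 in LDM replicate 2 to 9.20 in LDM replicate 3. These tests take the 6 libraries as independent. If libraries of the same number are treated as pairs, 3 pairs allow no p under 0.25, and neither the difference from the long transcripts nor that at 450 bases can be called.

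**Figure D1:**
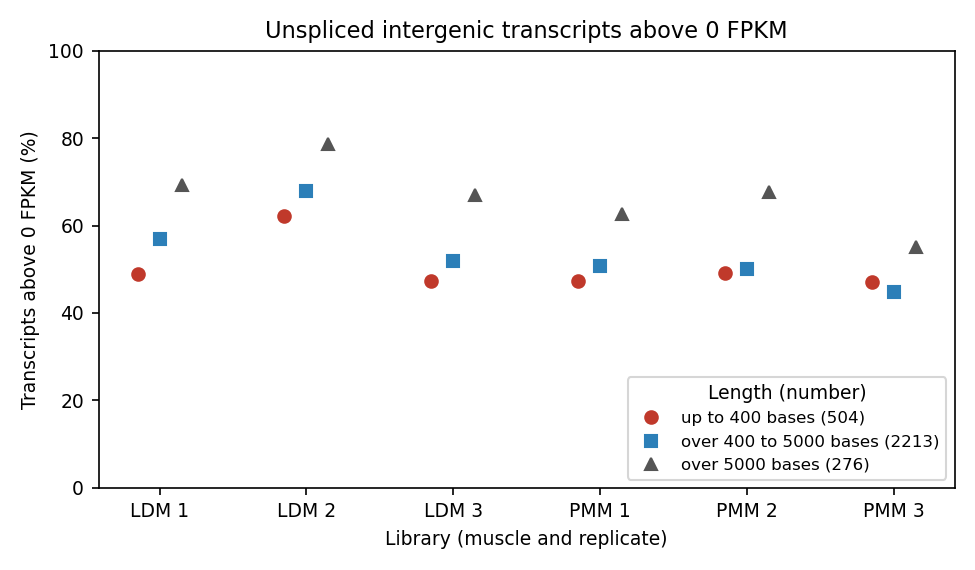
Percentage of unspliced intergenic transcripts above 0 FPKM (vertical axis) in each of the 6 libraries (horizontal axis), with 1 point per length class. Short transcripts lie below the long ones in all 6 libraries and below the mid-length ones in 5, and all 3 classes are highest in LDM replicate 2.

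Within the short class the share of values above 0 also varied with length. It was 54.9% for the 113 transcripts of 201 to 250 bases, 55.0% for the 133 of 251 to 300, 44.2% for the 132 of 301 to 350 and 47.9% for the 126 of 351 to 400. These shares are descriptive, since the transcripts share their libraries.

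Few short transcripts were found in every library. Those above 0 FPKM in exactly 1 library numbered 122 (24.2%), those in 2 numbered 116, and 79, 67 and 56 were above 0 in 3, 4 and 5 libraries. All 6 libraries held 64 (12.7%). Of the mid-length transcripts 19.0% were found in 1 library and 13.9% in 6, and of the long ones 6.88% in 1 and 23.2% in 6. The 64 found in all 6 libraries had a mean of 0.353 to 35.8 FPKM with a median of 1.54, and a coefficient of variation over the libraries of 9.11 to 139% with a median of 56.0%.

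**Figure D2:**
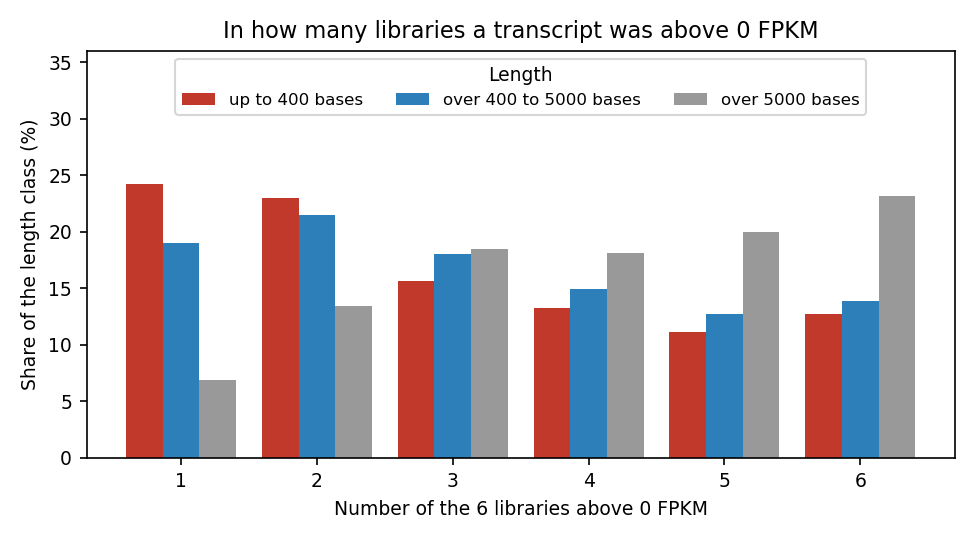
Share of each length class (vertical axis, %) by the number of the 6 libraries in which a transcript was above 0 FPKM (horizontal axis). The short class is highest at 1 library (24.2%) and the long class at 6 libraries (23.2%).

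By muscle, 329 short transcripts were above 0 FPKM in at least 1 library of both, 107 in LDM only and 68 in PMM only. The last counts include the transcripts of a single library, of which 17, 48 and 5 belonged to LDM replicates 1, 2 and 3 and 21, 20 and 11 to PMM. No transcript was above 0 in all 3 LDM libraries and at 0 in all 3 PMM libraries. The reverse held for 3 transcripts, MSTRG.4381.1, MSTRG.8333.1 and MSTRG.306.1. MSTRG.4381.1 (chr13:33062793-33063150, minus strand) was listed at 0 in LDM and had 0.276, 1.95 and 1.12 FPKM in PMM, from 5, 35 and 21 reads. MSTRG.8333.1 had 1.42, 0.430 and 0.476 FPKM in PMM, and MSTRG.306.1 had 0.105, 1.11 and 0.402. In the main fit none was under an adjusted p of 0.05 (limma, 0.538, 0.601 and 0.667 in that order). All 3 met the filter of that fit through PMM alone. With 0.01 in place of 1 added to FPKM, MSTRG.4381.1 had a log2 difference of -6.42 (limma adjusted p = 0.0136). These counts by muscle were made for the short transcripts only, so no trait of this class can be read from them.

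Transcripts of a single library were not only those of the fewest reads. The 122 had a median of 21 reads and a range of 0.973 to 56.0, and 116 of them had 10 reads or more. Their median level in that library was 1.36 FPKM. MSTRG.10956.1 (chr2:150434767-150435073, minus strand) was highest, with 3.48 FPKM from 56.0 reads in PMM replicate 3 and 0 in the other 5 libraries. MSTRG.1362.1 (chr1:210653047-210653411) had 2.54 FPKM in PMM replicate 1 only, and its neighbour MSTRG.1363.1, at 3221 bases on the same strand, had 1.49, 0.837 and 0.575 FPKM in PMM and at most 0.0143 in LDM. MSTRG.9581.1 (chr2:6155400-6155650) had 2.54 FPKM, MSTRG.631.1 (chr1:106868565-106868949) had 2.53 and MSTRG.7779.1 (chr15:147205871-147206193) had 2.05, each in LDM replicate 2 only. The longer MSTRG.630.1, at 571 bases from MSTRG.631.1 on the same strand, was listed at 0 in LDM replicate 2 and had 1.23 FPKM in LDM replicate 1 and 1.85 in PMM replicate 3. MSTRG.631.1 and this neighbour thus shared no library. The shortest member, MSTRG.8494.1 (chr17:19235255-19235455, 201 bases), had 1.34 FPKM from 13 reads in LDM replicate 2 and 0 elsewhere.

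The nearest pairs of short transcripts lay close together on the same strand, and many of their values fell in different libraries. MSTRG.4038.1 and MSTRG.4039.1 were separated by 291 bases on chromosome 12. MSTRG.4038.1 had 0.290, 0 and 0.707 FPKM in LDM against 0.177, 1.44 and 0.950 in PMM. MSTRG.4039.1 had 1.97 FPKM in LDM replicate 2, where MSTRG.4038.1 was at 0, and 0.189 in PMM replicate 3. MSTRG.435.1 and MSTRG.436.1 lay 583 bases apart on chromosome 1. Both had values in LDM replicate 3 (1.97 and 0.910 FPKM) and PMM replicate 3 (1.06 and 1.14), while LDM replicate 1 (0.140) and PMM replicate 1 (1.32) held MSTRG.435.1 alone and PMM replicate 2 held MSTRG.436.1 alone (1.25). MSTRG.7625.1 and MSTRG.7626.1, 627 bases apart on chromosome 15, had no library in common, with 0.670 and 1.67 FPKM of MSTRG.7625.1 in LDM and PMM replicates 2 and 1.45 FPKM of MSTRG.7626.1 in LDM replicate 3.

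Against these sparse transcripts stood a small group of abundant ones. In all 6 libraries, 20 short transcripts had 1 FPKM or more and 3 had 10 or more. The highest value of a transcript had a median of 1.51 FPKM over the 504, and 25 reached 1 FPKM in no library.

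MSTRG.16357.1 (chr7:10286753-10287077, plus strand, 325 bases) had the highest mean. Its levels were 28.7, 34.1 and 54.0 FPKM in LDM against 23.6, 36.5 and 37.6 in PMM, and the ranges of the muscles overlapped. The muscles differed by 0.23 on the log2(FPKM + 1) scale, LDM minus PMM, with a 95% interval of -0.49 to 0.95 (limma, adjusted p = 0.852). MSTRG.9987.1 (chr2:50919459-50919808, minus strand, 350 bases) was the most even of the abundant transcripts. It had 35.9, 28.8 and 32.7 FPKM in LDM against 34.6, 35.9 and 30.2 in PMM, with a coefficient of variation of 9.11% over the 6 libraries. Its log2 difference was -0.05 with an interval of -0.70 to 0.60, and the sign changed with coverage in place of FPKM, with another scaling and without LDM or PMM replicate 2. MSTRG.10179.1 (chr2:68431991-68432274, minus strand, 284 bases) had 22.8, 21.8 and 27.3 FPKM in LDM against 15.9, 24.0 and 21.8 in PMM. Here too the ranges overlapped, and the log2 difference was 0.22 (interval -0.44 to 0.89).

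MSTRG.9805.1 (chr2:19985735-19986113, plus strand, 379 bases) was as abundant but had 1 library far from the rest. Its LDM values were 26.3, 41.2 and 45.8 FPKM, and its PMM values 36.8, 1.92 and 32.0. PMM replicate 2, from 36.5 reads, was alone at the low end, and the other 2 PMM libraries lay inside the LDM range. Its log2 difference was 1.30 (SE 0.64, limma adjusted p = 0.622). With the replicate number as a block the limma adjusted p was 5.5e-04. There limma used a spread of 0.346, while the transcript's own was 1.60. Without PMM replicate 2 the difference was 0.10, the lowest over the alternatives. MSTRG.4904.1 (chr13:82170015-82170397, plus strand, 383 bases) completed the 5 highest, with 5.87, 9.40 and 15.2 FPKM in LDM against 15.03, 14.7 and 10.8 in PMM and a log2 difference of -0.45 (interval -1.20 to 0.29).

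**Figure D3:**
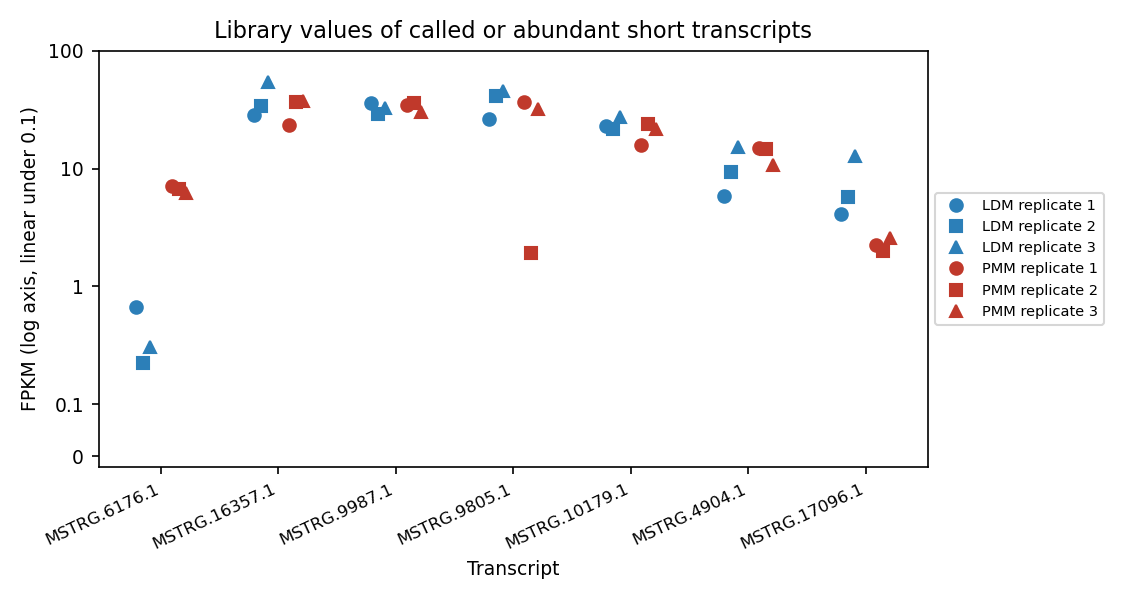
FPKM (vertical axis, logarithmic and linear under 0.1) of 7 short transcripts (horizontal axis) in each library, LDM in blue and PMM in red, with circle, square and triangle for replicates 1, 2 and 3. MSTRG.6176.1 is separated by muscle, MSTRG.9987.1 lies close together at 28.8 to 35.9 FPKM, and MSTRG.9805.1 has PMM replicate 2 at 1.92.

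Several less abundant transcripts also varied little over the libraries. Of the 64 found in all 6 libraries, 8 had a coefficient of variation under 30%. Among the 8 were the abundant MSTRG.9987.1, MSTRG.10179.1 and MSTRG.16357.1, given above. MSTRG.18328.1 had 2.40, 2.67 and 3.04 FPKM in LDM against 3.14, 3.46 and 2.04 in PMM, a variation of 18.7%. MSTRG.2899.1 had 5.44, 9.28 and 9.07 in LDM against 5.21, 7.72 and 7.20 in PMM, a variation of 23.7%. These 2 transcripts were picked after their values were seen.

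The muscles were then compared for each transcript. Of the 504 short transcripts, 140 had FPKM above 0 in each of the 3 libraries of LDM or of PMM and were tested among the 1721 of the whole table that met this filter, and 364 were not tested. The filter could be met through 1 muscle alone, which favours transcripts that are higher there, so counts over the 140 do not speak for the 504. At an adjusted p under 0.05 (limma, Benjamini-Hochberg), 1 short transcript was higher in PMM (0.714% of 140, against 0.116% of all tested) and 0 were higher in LDM (0.0581% of all tested). At an unadjusted p under 0.05 there were 12 in either direction (8.57%, against 7.84% of all tested). A fold of 2 here is a difference of 1 or more on the log2(FPKM + 1) scale, which lessens the change of low values. MSTRG.16706.1, with means 6.73 times apart, missed it at -0.96. With both an unadjusted p under 0.05 and such a fold, 5 were higher in LDM (3.57%, against 1.34% of all tested) and 4 in PMM (2.86%, against 2.44%). This count of 9 became 19 of 192 tested without LDM replicate 1 and 16 of 177 without LDM replicate 3. The filter was applied anew to the libraries left, so these are not counts over the same 140. No share over all tested transcripts is given for these fits. In 4 transcripts every LDM value was above every PMM value (2.86%, against 5.87% of all tested), and in 14 every PMM value was above every LDM value (10% of 140, against 9.01%). The shares of short transcripts thus lay near those of the whole table or differed from them by a handful of transcripts.

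The median log2 difference of the 140, LDM minus PMM, was -0.10, and it was -0.01 over all 1721. With a median-of-ratios scaling, which moved the median of all 1721 by 0.10 and single transcripts by unequal amounts, the median of the short ones was 0.00 and 70 of 140 were higher in each muscle, against 64 in LDM and 76 in PMM without it. The 95% interval of a transcript extended 0.83 to either side of its difference in the median, and for 28 of 140 it lay wholly within a change of 1. For the rest a difference of 2-fold on this scale could not be set aside at this depth and number of libraries.

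MSTRG.6176.1 was the called transcript. It lay at chr14:54933497-54933777 on the plus strand, with 281 bases, and the nearest other lncRNA of the table was 764042 bases away. Its level was 0.672, 0.221 and 0.304 FPKM in LDM against 7.09, 6.73 and 6.23 in PMM. Every PMM library was above every LDM library, and the PMM values had a coefficient of variation of 6.42%. The LDM values came from 10, 3 and 5 reads and the PMM values from 101, 94.8 and 91.8. The mean was 0.399 ± 0.240 (SD, n = 3) in LDM and 6.68 ± 0.429 in PMM, 16.7 times as high. On the log2(FPKM + 1) scale, which lessens the change of low values, LDM was lower than PMM, with a difference of -2.47 (SE 0.35, 95% interval -3.20 to -1.74, limma adjusted p = 8.9e-04). It was called under all 14 alternatives, at adjusted p-values up to 0.041, which included the 6 fits with a library left out. Its CPC score was -1.20.

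**Figure D4:**
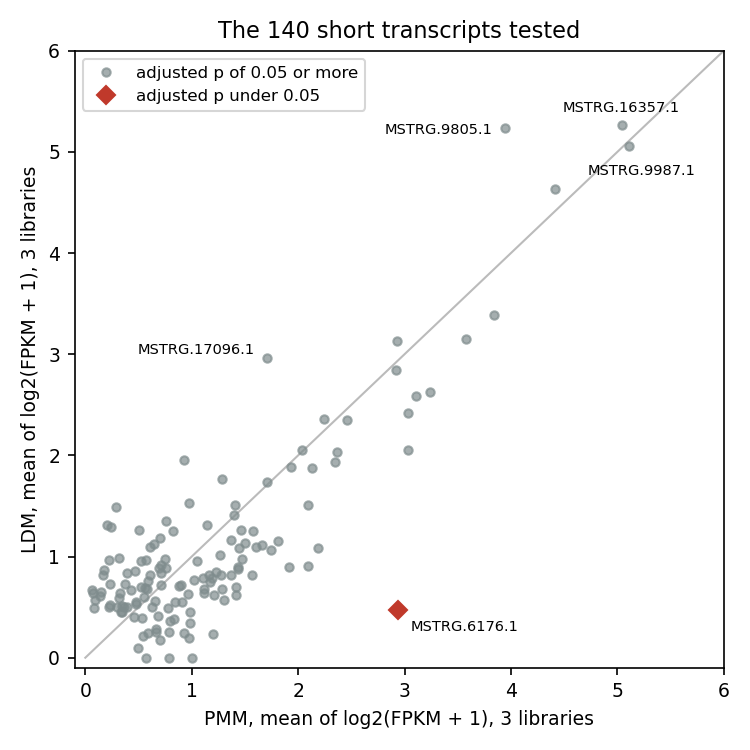
Mean log2(FPKM + 1) over the 3 libraries of LDM (vertical axis) against that of PMM (horizontal axis) for the 140 short transcripts tested, with the line of equal levels. MSTRG.6176.1 (red diamond) lies below the line, higher in PMM by 2.47, and is the 1 transcript at an adjusted p under 0.05.

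The remaining transcripts without overlap of the muscles, at 1 FPKM or more in the higher one, missed the adjusted threshold. MSTRG.17096.1 (chr7:83343642-83343939, minus strand) came nearest in LDM, with 4.11, 5.76 and 12.7 FPKM against 2.25, 2.0 and 2.56 in PMM. Each LDM library was above each PMM library, and LDM replicate 3 was the highest. Its log2 difference was 1.26 (SE 0.38, limma adjusted p = 0.380, and 0.0062 with the replicate block). MSTRG.12066.1 (chr3:82113417-82113655, minus strand) had 0.940, 1.90 and 1.71 FPKM in LDM against 0, 0.167 and 0.319 in PMM (difference 1.10, adjusted p = 0.462). Its neighbour MSTRG.12067.1, of 5340 bases at 6734 bases on the same strand, ran from 1.32 to 3.78 FPKM in LDM and from 3.12 to 3.65 in PMM. MSTRG.5451.1 (chr13:160313833-160314134, minus strand) had 1.17, 2.82 and 0.755 FPKM in LDM against 0.115, 0.493 and 0 in PMM (difference 1.04, adjusted p = 0.541).

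Of those higher in PMM, the 7 with the smallest p after MSTRG.6176.1 had limma adjusted p-values from 0.538 to 0.749. One was MSTRG.4381.1, given above. MSTRG.16706.1 (chr7:38441137-38441415) had 0.461, 0 and 0.122 FPKM in LDM against 1.34, 1.63 and 0.951 in PMM, a log2 difference of -0.96. MSTRG.15490.1 (chr6:69383479-69383689) had 0.179, 0.098 and 0.162 in LDM against 1.22, 1.88 and 0.181 in PMM, where PMM replicate 3, from 2 reads, was close to the LDM libraries. MSTRG.3849.1, MSTRG.7754.1, MSTRG.854.1 and MSTRG.9256.1 had LDM means of 0.630 to 1.15 FPKM and PMM means of 1.26 to 2.04. Their log2 differences ran from -0.72 to -0.42, and the 95% intervals of all 4 held 0.

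With the replicate number as a block, 6 short transcripts passed an adjusted p of 0.05, 3 higher in LDM (2.14%, against 1.10% of all tested) and 3 in PMM (2.14%, against 1.69%). At an unadjusted p under 0.05 and a fold of 2, the block gave 6 in LDM (4.29%, against 1.63% of all tested) and 4 in PMM (2.86%, against 2.50%). Besides MSTRG.6176.1, MSTRG.17096.1 and MSTRG.9805.1 these were 3 named here after their values were seen. MSTRG.1992.1 had 0.560, 2.46 and 3.10 FPKM in LDM against 0, 0.591 and 0.141 in PMM (adjusted p = 0.0463). MSTRG.6011.1 had 0.760, 2.77 and 0 in LDM against 2.39, 4.0 and 3.55 in PMM (adjusted p = 0.0286). MSTRG.6800.1 had 1.27, 2.89 and 0.082 in LDM against 7.11, 1.63 and 3.39 in PMM (adjusted p = 0.0463), and in the libraries numbered 2 LDM was the higher. For 4 of the 6 the spread that limma used was smaller than the transcript's own.

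Some short transcripts followed the replicate number and not the muscle. A transcript was counted where both libraries of a number were under 0.1 FPKM and the other 4 at 1 FPKM or more, or both at 1 or more and the other 4 under 0.1. These thresholds were chosen after the values were seen and the counts are descriptive. There were 7 such short transcripts of 504, 28 of the 2213 mid-length, 0 of the 276 long and 41 of all 4046 lncRNAs. The number rule could be met by any of 3 numbers and the muscle rule by 1 split only. Their counts are thus not on equal terms. By muscle, with 3 libraries under 0.1 and the other 3 at 1 FPKM or more, there were 0 short transcripts, and of all 4046 lncRNAs 4 were low in LDM and 1 was low in PMM.

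MSTRG.16217.1 (chr6:152691299-152691561, minus strand) was near 0 in both libraries numbered 1. It had 0.0568, 9.34 and 11.09 FPKM in LDM against 0.0813, 14.9 and 8.62 in PMM, and the low values came from about 1 read each. The opposite was seen for MSTRG.15470.1 (chr6:66705875-66706239), which had 1.24 and 1.68 FPKM in the libraries numbered 1 and at most 0.0936 in the other 4. Replicates 2 were the low ones for 3 transcripts. MSTRG.9570.1 (chr2:5938880-5939114, minus strand) had 10.1, 0 and 3.05 FPKM in LDM against 16.2, 0 and 6.01 in PMM, from up to 193 reads. MSTRG.9569.1, of 1074 bases and 269 bases away on the same strand, was present in the same libraries at 41.5 FPKM in LDM replicate 2 and 17.3 in PMM replicate 2, so the locus next to it was covered where MSTRG.9570.1 was at 0. MSTRG.3935.1 (chr12:52664349-52664581) had 2.47, 0.0890 and 5.14 FPKM in LDM against 2.43, 0.0856 and 3.97 in PMM. MSTRG.2257.1 (chr10:22267948-22268219) had 3.05, 0 and 3.08 in LDM against 3.92, 0 and 2.38 in PMM. In MSTRG.2033.1 and MSTRG.4873.1 replicates 2 were the only ones above 0, with 1.84 and 1.69 FPKM in that LDM library against 1.18 and 4.67 in the PMM one.

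**Figure D5:**
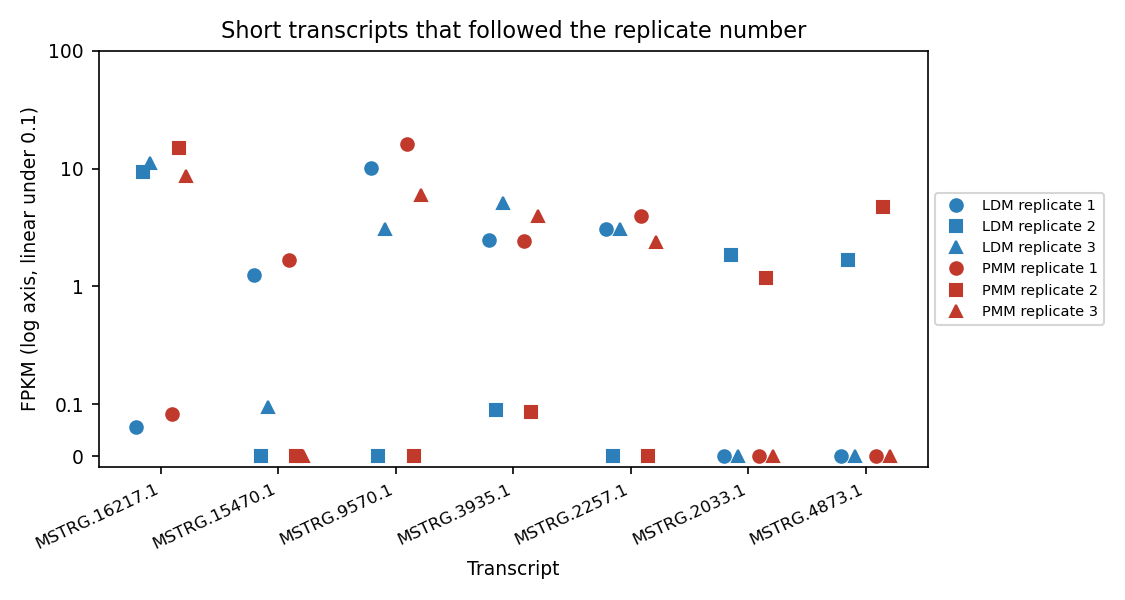
FPKM (vertical axis, logarithmic and linear under 0.1) of the 7 short transcripts that followed the replicate number (horizontal axis), LDM in blue and PMM in red, with circle, square and triangle for replicates 1, 2 and 3. Symbols of the same shape lie together in both muscles, as for MSTRG.9570.1, whose replicates 2 are at 0 and whose replicates 1 are at 10.1 and 16.2.

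At the length limit, the values were sparse on both sides. Just inside, MSTRG.765.1 (400 bases) had 0.990, 0.233 and 0.128 FPKM in LDM against 0, 0 and 0.191 in PMM. MSTRG.19792.1 (399 bases, chromosome X) had 1.32, 1.30 and 0.385 in LDM against 0, 0 and 0.574 in PMM, and MSTRG.17126.1 (399 bases) had 0.0947, 0.364 and 0.0428 in LDM against 1.39, 0 and 0.287 in PMM. Just outside, MSTRG.16607.1 (401 bases) had 1.92, 4.18 and 0.128 in LDM against 0.197, 1.04 and 0 in PMM. MSTRG.7618.1 (401 bases) had 1.87 in PMM replicate 1 and 0 in the other libraries, and MSTRG.8139.1 (402 bases) had 0.376, 1.34 and 0 in LDM against 0.442, 0.546 and 0 in PMM.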

How the data were processed

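Total RNA of 3 LDM and 3 PMM libraries was freed of ribosomal RNA and sequenced as paired reads of 150 bases. TopHat was the authors' aligner, and Sscrofa11.1 is the genome that the submitters' processing notes name. Cufflinks is the assembler in the methods, while the identifiers start with MSTRG. The methods also state that transcripts of fewer than 2 exons were left out, while every transcript described here has 1. The deposited table gives the FPKM and the read coverage (a signal per base, not scaled between libraries) that the authors computed for each transcript and library, and the deposited CPC and CNCI scores. Reads behind a value were taken as coverage times length divided by 150. Coverage times length was whole, within 0.02 bases, for 97.1% of the values above 0. No count model was used.

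FPKM were compared as log2(FPKM + 1), LDM minus PMM, with limma 3.58.1 (R 4.3.3), moderated spread, an intensity trend and two-sided Benjamini-Hochberg adjusted p-values over the 1721 transcripts with FPKM above 0 in each of the 3 libraries of LDM or of PMM. The fit was tested on simulated data. Library values were compared with exact permutation tests over muscles and exact sign-flip tests over libraries. Python 3.11.15, numpy 2.4.6, pandas 2.3.3 and matplotlib 3.10.9 were used. Nothing in the labels says that the libraries of a muscle came from separate pigs. The paper calls them biological replicates. Its methods describe both muscles as taken from the same set of female pigs, with samples picked at random for sequencing. They do not say which library came from which pig. P-values measure the spread between these libraries only. Intervals are at 95%.

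Transcripts were named by a fixed rule: all at an adjusted p under 0.05, up to 8 per muscle of the smallest p without overlap and with 1 FPKM or more in the higher muscle, the 5 of the highest mean in each muscle, those with a number that the paper gives to a lncRNA (MSTRG.6176.1), the 5 highest of a single library, the 3 nearest pairs, the 3 longest with the 3 just over the limit, and the shortest. The match of MSTRG.6176.1 to LncRNA6176, for which the paper's supplement lists qPCR primers, rests on the number alone. The transcripts that follow the replicate number were added after the values were seen. The members and lists were chosen with earlier results of these data known. The alternatives were pseudocounts of 0.1 and 0.01, other filters, a median-of-ratios scaling, coverage, no trend, a replicate block and each library left out.

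The replicate numbers 1, 2 and 3 occur in both muscles. Over the 1721 transcripts, deviations from the mean of the muscle had correlations of 0.239, 0.123 and 0.168 between same-numbered libraries, and of -0.179 to 0.0423 between the rest. Pairing by number was therefore run as an alternative, the replicate block. The main limma fit and the permutation tests over muscles leave the pairing out, and the sign-flip tests over libraries treat the libraries as independent. Over the 140 short transcripts tested, the same-number values were 0.347, 0.0252 and 0.248, and the rest ran from -0.318 to 0.126. The value of 0.126, for LDM replicate 3 with PMM replicate 2, was above the same-number value of the libraries numbered 2. That a number marks 1 pig is an assumption.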

Additional observations from a re-analysis of the deposited data

How the results depend on the processing

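The count of 1 short transcript at an adjusted p under 0.05 became 2 without a filter (1 higher in LDM, MSTRG.9805.1, and 1 in PMM). With a pseudocount of 0.01 it became 4, all higher in PMM, and with the replicate block as a pairing of the libraries 6. MSTRG.6176.1 was among them each time. The 4 included MSTRG.4381.1, which was listed at 0 in all LDM libraries and met the filter through PMM alone. A pseudocount this small widens the log2 distance of a listed 0 from other values, and no share over all tested transcripts is given for it. The count was 1 with each library left out in turn and under the other alternatives. The count of 9 at an unadjusted p under 0.05 and a fold of 2 ranged from 7 to 19 with a library left out and from 7 to 13 otherwise. It was 10 with the replicate block. These counts have unlike bases, since 166 to 192 short transcripts were tested with a library left out, and the 13 was over all 504 without a filter. The block changed no call of a library value, with exact sign-flip p of 0.25 for the number above 0 FPKM and 1 for the mean level, where 3 pairs allow no p under 0.25.

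The difference in mean log10(FPKM + 1), 0.0121, was -0.0138 over values above 0 only (exact permutation p = 0.8) and ranged from -0.0210, without LDM replicate 2, to 0.0309 with a library left out. The short minus mid-length share, -3.39, changed to -8.17 points with 450 covered bases, a rule that favours longer transcripts (exact sign-flip p = 0.03125). At 1 FPKM or more it was -1.49 (exact sign-flip p = 0.594). The short minus long share was -8.69 at 1 FPKM or more (exact p = 0.125). It ranged from -18.0 to -15.6 with a library left out, where 5 libraries allow no p under 0.0625. Cases of a changed sign among named transcripts were few, and none had passed the test. With a library left out, MSTRG.16357.1 ranged from -0.028 to 0.42, MSTRG.17126.1 from -0.60 to 0.031, MSTRG.9987.1 from -0.12 to 0.032, MSTRG.16217.1 from -1.28 to 1.03 and MSTRG.3935.1 from -0.53 to 0.80. MSTRG.9987.1 also had 0.0061 with coverage and 0.21 with the median-of-ratios scaling, and MSTRG.16217.1 had 0.029 with that scaling. Of the other alternative values of named transcripts, 287 kept their direction and their side of the threshold and 4 passed it anew. The causes were not tested.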
